A study of Mus musculus with 8 samples.

Results

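The small leucine-rich proteoglycan genes *Dcn*, *Bgn*, *Lum*, *Fmod*, *Ogn*, *Prelp*, *Aspn*, *Kera*, *Omd* and *Podn* were followed in the tibialis anterior (TA) muscle of mice. These 10 genes were chosen by their symbols among the 16686 genes of the deposited table, and all 10 were found there. RNA of 4 wild-type (WT) and 4 *Mybpc2* knockout (C2-/-) mice was sequenced, with 1 library per mouse. All were males on the FVBN background and both genotypes were untreated. The age label and the dissection protocol give 22 months, while the growth protocol in the labels gives 2 months, and 22 months is used here. In C2-/- mice a Neo cassette with LoxP sites on either side takes the place of exons 2 to 22 of *Mybpc2*, so fast myosin binding protein-C is missing in every cell from the germline on and not in muscle alone.

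Small leucine-rich proteoglycans are secreted proteins built of leucine-rich repeats that bind the surface of collagen fibrils and set how fibrils assemble and how thick they grow. Many carry a chondroitin, dermatan or keratan sulfate chain, and several hold growth factors such as TGF-β in the matrix. In muscle they are made mainly by fibroblast-like cells of the endomysium and perimysium and by tendon cells, and much less by the muscle fibres. The family falls into classes by sequence. *Dcn* (decorin), *Bgn* (biglycan) and *Aspn* (asporin) belong to class I, *Lum* (lumican), *Fmod* (fibromodulin), *Prelp*, *Kera* (keratocan) and *Omd* (osteomodulin) to class II, *Ogn* (osteoglycin, or mimecan) to class III and *Podn* (podocan) to class V.

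The libraries held between 25425993 and 29747692 counts each. The level of 3 counts, the smallest that is read as detected, lay between 0.101 and 0.118 CPM (counts scaled to a common library size), for counting error only. *Mybpc2* was at 4963, 5447, 5099 and 7390 CPM in WT replicates 1 to 4 and at 4.35, 4.02, 38.3 and 3.85 CPM in C2-/- replicates 1 to 4, so every library matched its genotype label. The 7 fast muscle fibre markers, among them *Myh4*, *Ckm* and *Acta1*, summed to between 140054 and 183604 CPM in WT and between 146278 and 163731 CPM in C2-/-. In these whole-muscle RNA samples, more cells of a type and more RNA per cell cannot be told apart.

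Most of the genes lie in 3 clusters of the GRCm38 genome, which the table places as follows. On chromosome 10, *Dcn* (97479500 to 97518163), *Lum* (97565501 to 97572703) and *Kera* (97606955 to 97613688) follow each other on the plus strand, with gaps of 47337 and 34251 bases. On chromosome 13, *Aspn* (49544443 to 49567565), *Omd* (49579754 to 49592612) and *Ogn* (49608071 to 49624500) do the same, 12188 and 15458 bases apart. On chromosome 1, *Prelp* (133910304 to 133929977, minus strand) and *Fmod* (134037515 to 134048277, plus strand) are 107537 bases apart. *Bgn* (X, 73483601 to 73495936) and *Podn* (4, 108014793 to 108032090) lie alone.

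The sequences in front of *Bgn*, *Aspn* and *Fmod* are shown because *Bgn* and *Aspn* varied together over the 8 mice (r = 0.91), although at different levels, and *Fmod* had the widest range of the well-expressed genes. They are the 250 bases before the RefSeq transcript start in GRCm38.p6 (chrX:73483351-73483600 for *Bgn*, chr13:49544193-49544442 for *Aspn* and chr1:134037004-134037253 for *Fmod*, plus strand), and none of their bases lies in a GENCODE vM21 exon. Capitals mark matches on either strand to the TATA box letters TATAAA, to the GC box letters GGGCGG, to the E-box letters CAGATG or to the letters CCAAT of the box named after them.
Bgn: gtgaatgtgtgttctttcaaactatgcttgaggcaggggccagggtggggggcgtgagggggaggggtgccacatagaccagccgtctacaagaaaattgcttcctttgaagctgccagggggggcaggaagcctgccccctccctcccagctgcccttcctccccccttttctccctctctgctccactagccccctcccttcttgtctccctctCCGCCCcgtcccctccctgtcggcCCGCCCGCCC
Aspn: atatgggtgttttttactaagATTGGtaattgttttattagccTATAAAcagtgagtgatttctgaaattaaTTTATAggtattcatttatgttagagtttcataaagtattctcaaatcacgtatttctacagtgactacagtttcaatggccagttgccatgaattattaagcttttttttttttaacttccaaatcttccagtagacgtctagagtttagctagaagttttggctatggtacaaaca
Fmod: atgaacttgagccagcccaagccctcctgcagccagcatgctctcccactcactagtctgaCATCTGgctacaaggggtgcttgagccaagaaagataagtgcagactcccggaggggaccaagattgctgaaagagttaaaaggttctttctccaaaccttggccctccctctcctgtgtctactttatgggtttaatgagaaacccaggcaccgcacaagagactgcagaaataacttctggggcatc
The *Bgn* sequence is 64.4% G and C with 3 GC boxes in its last 34 bases, of which the last 2 overlap by 2 bases. The *Aspn* sequence is 30% G and C with 2 TATA boxes and 1 CCAAT box, and the *Fmod* sequence is 51.2% G and C with 1 E-box. Among all 32851 RefSeq windows of this length, 32.7% hold a GC box, 12.4% a TATA box, 33.8% a CCAAT box and 14.4% this E-box, and the median G and C content is 52.4%. The AP-1 letters TGAGTCA and TGACTCA, present in 4.46% of windows, and the Smad palindrome GTCTAGAC, present in 0.167%, were found in 0 of the 9 windows of the 8 members that have one. A match of letters is a description and not a binding site.

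Levels can be compared between genes only per length, for which the deposited TPM (transcript abundance, scaled by the authors for gene length and library size) were used. In WT muscle, *Dcn* was by far the most abundant of the 10, with 233 ± 42.8 TPM (SD, n = 4). *Bgn* followed with 42.3 ± 14.3 TPM, *Fmod* with 30.5 ± 26.8, *Prelp* with 18.2 ± 4.80, *Lum* with 12.5 ± 7.33, *Ogn* with 11.4 ± 4.36, *Podn* with 6.19 ± 2.16 and *Aspn* with 5.84 ± 2.82 (SD, n = 4). *Kera*, the corneal and tendon member, was at 0.588 ± 0.711 TPM and *Omd*, known from bone and tooth, at 0.193 ± 0.102 TPM (SD, n = 4). Only *Dcn* against *Bgn* and *Aspn* against *Kera* were neighbours in this order whose WT mice did not overlap.

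The order in C2-/- muscle was the same at its ends, with *Dcn* at 307 ± 30.6 TPM and *Omd* at 0.340 ± 0.189 TPM (SD, n = 4). In the middle, *Fmod* and *Bgn* had nearly equal means of 61.9 ± 37.5 and 61.2 ± 3.15 TPM (SD, n = 4), but *Fmod* ranged from 21.3 to 100 TPM and *Bgn* only from 57.3 to 64.4 TPM. With CPM divided by the longest GENCODE transcript in place of TPM, *Lum* and *Ogn* changed places in WT, and so did *Podn* and *Aspn*.

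Summed over the 10 genes, the family came to 356, 298, 494 and 296 TPM in WT replicates 1 to 4 and to 418, 593, 492 and 566 TPM in C2-/- replicates 1 to 4. The groups overlapped, since WT replicate 3 was above C2-/- replicates 1 and 3. *Dcn* made up 65.6% ± 7.68 of this sum in WT and 59.7% ± 4.23 in C2-/- (SD, n = 4), and *Fmod* 7.91% ± 5.56 and 11.4% ± 5.81.

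**Figure D1:**
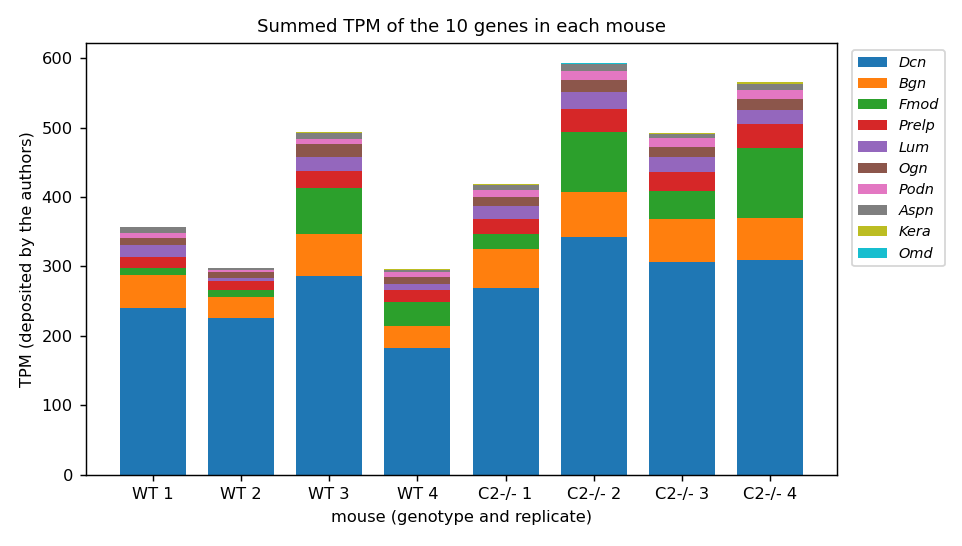
Stacked bars of the deposited TPM (vertical axis) of the 10 genes in each of the 8 mice (horizontal axis, genotype and replicate). *Dcn* is the largest part in every mouse, and the sums run from 296 to 494 TPM in WT and from 418 to 593 TPM in C2-/- mice.

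To ask whether these genes differ between muscle with and without fast myosin binding protein-C, the counts of all genes were compared between the genotypes. Of the 10 members, 9 passed the filter on low counts and were tested with edgeR's quasi-likelihood test together with 12542 genes in all, and *Omd* did not pass. All 9 tested members had a higher fitted level in C2-/- than in WT, as did 45.8% of all tested genes. Their median log2 fold change (C2-/- minus WT) was 0.61, against −0.02 for all tested genes. With an unadjusted p under 0.05, 4 of the 9 were higher in C2-/- (*Podn*, *Prelp*, *Bgn* and *Dcn*) and 0 were lower. Of all tested genes, 5.29% had such a p, 3.38% being higher and 1.91% lower. For *Podn*, *Bgn*, *Dcn* and *Lum*, every C2-/- mouse was above every WT mouse, which 2.02% of tested genes showed, and 0 members had every C2-/- mouse below every WT mouse, against 1.36% of tested genes.

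After Benjamini-Hochberg adjustment over all tested genes, 0 of the 9 reached 0.05 with edgeR, with limma-voom or with DESeq2, while 0.0319% of all genes passed this threshold above 1.5-fold with edgeR, and 0.0319% and 0.311% were under 0.05 with limma-voom and DESeq2. The number of members with an unadjusted p under 0.05 was 5 with limma-voom and 5 with DESeq2, all higher in C2-/-, as were 3.6% and 3.63% of all tested genes. It was 2 without WT replicate 4 and 8 without WT replicate 3, so that this count rested on single mice. The p-values set the genotype difference against the spread between mice within each genotype. The labels do not say whether the mice were littermates, so the p-values cannot tell genotype apart from litter or other differences shared by a group.

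**Figure D2:**
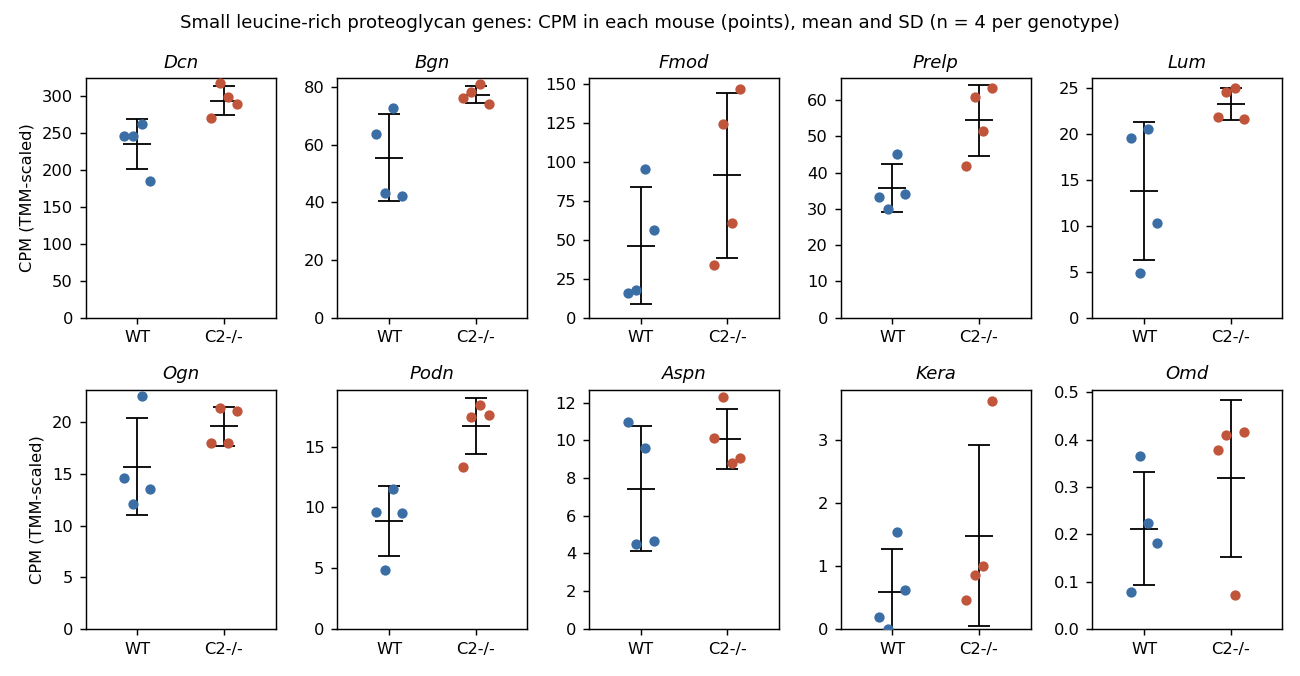
CPM (vertical axis, scaled by TMM, starting at 0 and different for each gene) of the 10 genes in each mouse, with 1 point per mouse and bars for the mean and SD (n = 4 per genotype), cut at 0 for *Kera*. The C2-/- points of *Dcn*, *Bgn*, *Lum* and *Podn* all lie above the WT points, while those of the other 6 genes overlap with WT.

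Among the class I genes, *Dcn* encodes decorin, which binds collagen type I and TGF-β and is also known to bind myostatin. In WT replicates 1 to 4, *Dcn* was at 246, 246, 262 and 185 CPM. In C2-/- replicates 1 to 4, it was at 270, 317, 298 and 290 CPM. All 4 C2-/- mice were above the highest WT mouse, although the margin between C2-/- replicate 1 and WT replicate 3 was small. *Dcn* had a log2 fold change of 0.32 (SE, the standard error of the fit, 0.13, edgeR adjusted p = 0.882 by Benjamini-Hochberg, unadjusted p = 0.0280), or 1.25-fold. Its unadjusted p was 0.0645 without WT replicate 4, 0.0733 without C2-/- replicate 2 and 0.0567 without C2-/- replicate 3.

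*Bgn* encodes biglycan, which is known to bind α-dystroglycan and sarcoglycans at the muscle fibre membrane as well as collagen. Its expression was 63.9, 43.4, 72.6 and 42.3 CPM in WT replicates 1 to 4 and 76.2, 78.4, 81.1 and 74.3 CPM in C2-/- replicates 1 to 4. The C2-/- mice were close together, with a highest value 1.09-fold above the lowest, while the WT mice spread 1.72-fold. *Bgn* had a log2 fold change of 0.48 (SE 0.18, edgeR adjusted p = 0.849, unadjusted p = 0.0210), with an unadjusted p of 0.0544 without WT replicate 4.

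*Aspn* encodes asporin, named for its run of aspartate residues and known as an inhibitor of TGF-β in cartilage. It was at 10.9, 4.52, 9.59 and 4.67 CPM in WT replicates 1 to 4 and at 10.1, 12.3, 8.79 and 9.08 CPM in C2-/- replicates 1 to 4. WT replicates 2 and 4 were low, and the other two WT mice lay within the C2-/- range. For *Aspn*, the log2 fold change was 0.44 (SE 0.29, edgeR adjusted p = 0.968, unadjusted p = 0.157), and the mice of each genotype spread more widely than this.

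Among the class II genes, *Lum* encodes lumican, a keratan sulfate proteoglycan that limits the width of collagen fibrils. *Lum* was at 19.6, 4.89, 20.5 and 10.3 CPM in WT replicates 1 to 4. In C2-/- replicates 1 to 4 it was at 21.9, 24.6, 24.96 and 21.6 CPM. The groups did not overlap, but the difference came largely from WT replicates 2 and 4, since WT replicates 1 and 3 were just below the C2-/- mice. *Lum* had a log2 fold change of 0.75 (SE 0.36, edgeR adjusted p = 0.968, unadjusted p = 0.0609), and it was 0.48 without WT replicate 2. Its unadjusted p was 0.0243 with limma-voom and 0.0333 with DESeq2, and it was also under 0.05 without WT replicate 1, 2 or 3.

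*Fmod* encodes fibromodulin, which is abundant in tendon, shares a binding site on collagen with lumican and takes part in collagen cross-linking. It was at 15.8, 17.9, 95.2 and 56.1 CPM in WT replicates 1 to 4 and at 33.6, 125, 60.4 and 147 CPM in C2-/- replicates 1 to 4. Mice of 1 genotype differed more than the genotypes did, with a highest value 6.02-fold above the lowest in WT and 4.37-fold in C2-/-. The fitted difference on the log2 scale was 0.98 (SE 0.60, edgeR adjusted p = 0.968, unadjusted p = 0.134), or 1.97-fold, within the spread between mice. It was 1.61 with an unadjusted p of 0.0204 without WT replicate 3.

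*Prelp* encodes a protein with an arginine- and proline-rich end that binds heparan sulfate and is thought to tie basement membranes to collagen. It was at 33.2, 30.04, 45.2 and 34.0 CPM in WT replicates 1 to 4 and at 41.8, 60.9, 51.6 and 63.4 CPM in C2-/- replicates 1 to 4. WT replicate 3 was above C2-/- replicate 1, and the other 3 C2-/- mice were above all WT mice. *Prelp* had a log2 fold change of 0.61 (SE 0.17, edgeR adjusted p = 0.630, unadjusted p = 0.00461). The unadjusted p stayed at or under 0.0167 whichever mouse was left out, and the adjusted p was 0.137 with DESeq2.

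*Kera* encodes keratocan and had few counts, near or below the limit of detection only in WT replicates 1 and 2. It had 5, 0, 41 and 17 counts in WT replicates 1 to 4 and 12, 23, 28 and 104 counts in C2-/- replicates 1 to 4. This corresponded to 0.193, 0, 1.53 and 0.615 CPM in WT and 0.454, 0.855, 0.993 and 3.60 CPM in C2-/- mice. *Kera* had a log2 fold change of 1.34 (SE 0.91, edgeR adjusted p = 0.968, unadjusted p = 0.172). It was 0.39 without C2-/- replicate 4 and 2.44, with an unadjusted p of 0.0325, without WT replicate 3. *Omd* had between 2 and 10 counts in WT and between 2 and 12 in C2-/- mice, with 0.212 ± 0.119 and 0.319 ± 0.166 CPM (SD, n = 4). The groups overlapped (two-sided exact permutation test of the means, p = 0.314, where 4 mice against 4 allow no p under 0.0286), and a difference was not detectable at this depth.

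In class III, *Ogn* encodes osteoglycin, known as a regulator of collagen fibril formation and as a factor secreted by muscle. It was at 14.6, 12.1, 22.5 and 13.5 CPM in WT replicates 1 to 4 and at 17.9, 21.3, 18.0 and 21.1 CPM in C2-/- replicates 1 to 4. WT replicate 3 had the highest value of all 8 mice, and the other 3 WT mice were below every C2-/- mouse. The log2 fold change was 0.32 (SE 0.19, edgeR adjusted p = 0.968, unadjusted p = 0.120), and without WT replicate 3 it was 0.55 with an unadjusted p of 0.00264.

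In class V, *Podn* encodes podocan, a collagen-binding protein first described in the kidney and the vessel wall, where it restrains smooth muscle growth. *Podn* was at 9.60, 4.85, 11.5 and 9.55 CPM in WT replicates 1 to 4. In C2-/- replicates 1 to 4 it was at 13.3, 17.4, 18.4 and 17.6 CPM. Every C2-/- mouse was above every WT mouse, and C2-/- replicate 1 was the lowest of its group. Its log2 fold change was 0.91 (SE 0.24, edgeR adjusted p = 0.591, unadjusted p = 0.00297), or 1.88-fold. *Podn* had the smallest p among the 9 tested members, and it had an unadjusted p of at most 0.00988 whichever mouse was left out. Its adjusted p was 0.0690 with DESeq2, the lowest adjusted p of any member under any alternative, while over all alternatives it ranged from 0.0690 to 0.9996.

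**Figure D3:**
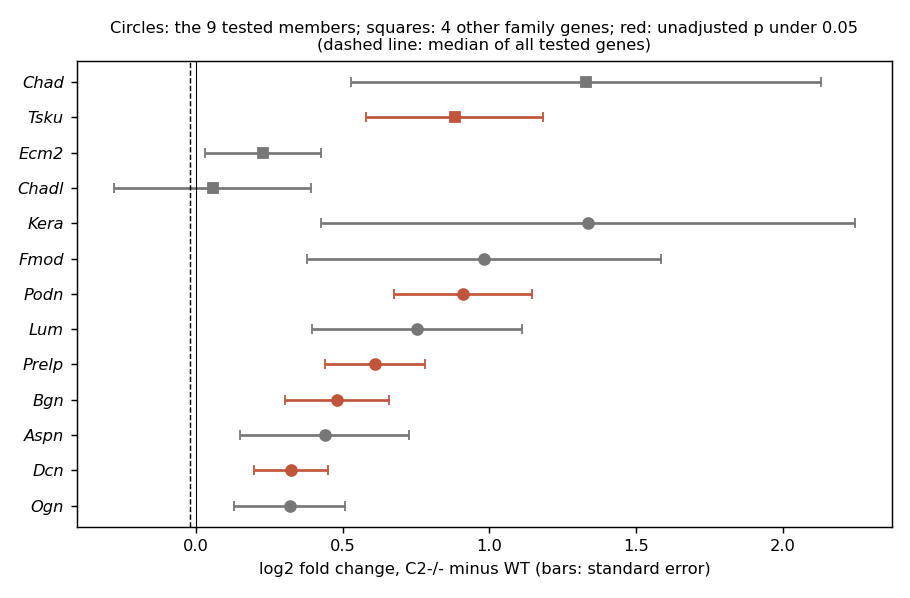
Log2 fold change (horizontal axis, C2-/- minus WT, bars for the standard error of the edgeR fit) of the 9 tested members (circles) and 4 tested relatives (squares), with the median of all tested genes at −0.02 as a dashed line. All 13 points lie above 0, and the 5 red ones (*Dcn*, *Bgn*, *Prelp*, *Podn* and *Tsku*) had an unadjusted p under 0.05.

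All tested genes of the 3 clusters had a higher fitted level in C2-/-. On chromosome 10, the log2 fold change was 0.32 for *Dcn*, 0.75 for *Lum* and 1.34 for *Kera*, with standard errors of 0.13, 0.36 and 0.91, and *Dcn* was at 246 CPM in WT replicate 2, where *Kera* had no count. On chromosome 13, *Aspn* and *Ogn* had log2 fold changes of 0.44 and 0.32, and their neighbour *Ecm2*, a related gene with leucine-rich repeats, had 0.23 (standard error 0.20, unadjusted p = 0.276 from the edgeR test). The differences between these neighbours were not tested.

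**Figure D4:**
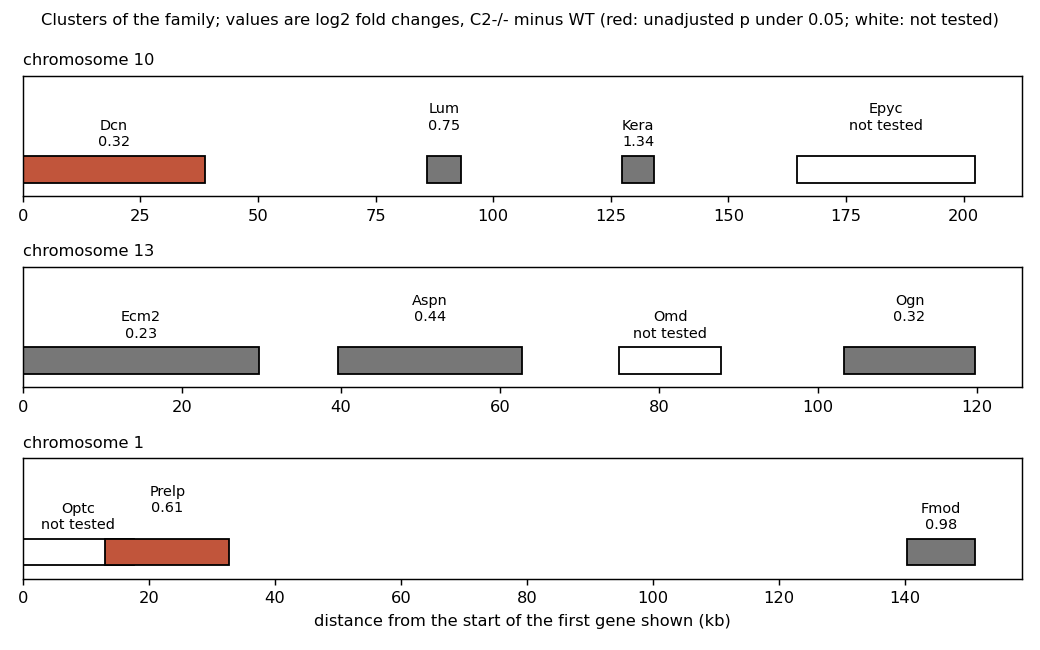
Maps to scale of the 3 clusters, each with the distance in kb from the start of its first gene (horizontal axis) and boxes for the gene intervals of the table. The log2 fold change (C2-/- minus WT) stands above each box; red boxes, *Dcn* and *Prelp*, had an unadjusted p under 0.05, grey boxes a higher p, and white boxes were not tested.

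Across the 8 mice, the members varied together to different degrees. These correlations are given as a description over 8 mice that also differ in genotype. Over the 36 pairs of tested members, Pearson's r of log2 CPM had a median of 0.77 and ran from 0.32 to 0.92. With each genotype's mean taken out, the median was 0.63 and 35 of the 36 pairs were above 0. *Bgn* was most like *Lum* (r = 0.92) and *Aspn* (r = 0.91), and all of these were low in WT replicates 2 and 4. *Fmod* was most like *Kera* (r = 0.89) and *Prelp* (r = 0.87), and least like *Aspn* (r = 0.32). *Dcn* and *Kera*, which lie in the same cluster, had an r of 0.35.

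WT replicate 2 had the lowest mean over the 9 tested members and WT replicate 3 the highest of the WT mice. On average over the 9 genes, log2 CPM relative to the 8-mouse mean was −0.38, −1.15, 0.36 and −0.39 in WT replicates 1 to 4 and 0.02, 0.53, 0.33 and 0.69 in C2-/- replicates 1 to 4. By this mean, WT replicate 3 was within the range of the C2-/- mice. In this mouse *Kera* was at 1.26 and *Fmod* at 0.86, the genes with the widest range. The other members ran from −0.04 (*Podn*) to 0.38 (*Ogn*), so that its mean rested largely on *Kera* and *Fmod*. Without WT replicate 2, *Omd* also passed the filter. The median log2 fold change of the members, *Omd* included, was then 0.51, and 5 of them had an unadjusted p under 0.05.

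**Figure D5:**
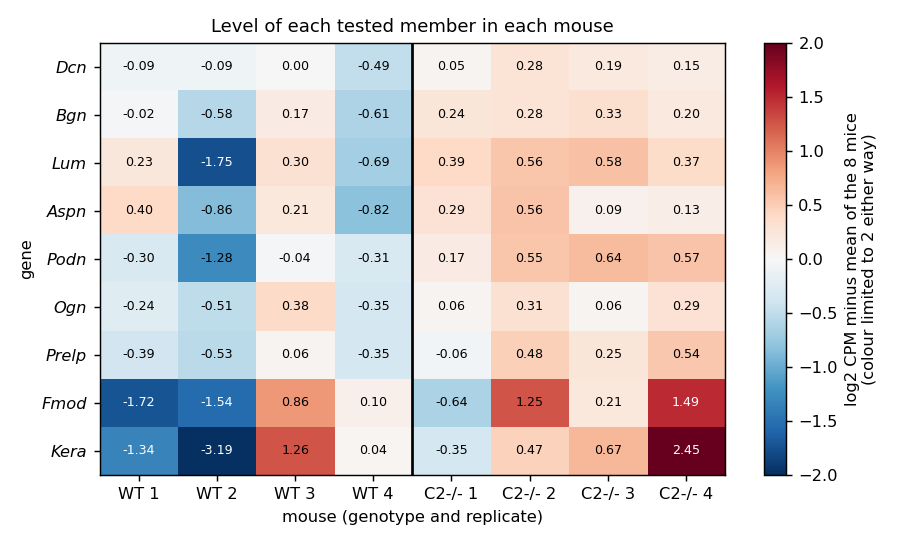
Log2 CPM of the 9 tested members (rows) in each mouse (columns) minus the gene's mean over the 8 mice, with the value in each cell and a line between the genotypes. The lowest values stand in WT replicate 2 (*Kera* at −3.19, *Lum* at −1.75), and *Fmod* and *Kera* have the widest range.

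The markers of some cell types of muscle also had higher fitted levels in C2-/- mice. The 10 markers of fibro-adipogenic progenitors (*Pdgfra*, *Pi16*, *Dpt* and others), the collagen-producing stromal cells of muscle, were summed. The sums were between 537 and 648 CPM in WT and between 696 and 849 CPM in C2-/- mice, without overlap. Most of each sum was *Gsn* alone, at 349, 409, 448 and 415 CPM in WT replicates 1 to 4. In C2-/- replicates 1 to 4 *Gsn* was at 458, 585, 556 and 622 CPM. The lowest sum, in WT replicate 1, was thus also the lowest *Gsn* value, and the sums say little about the other markers. All 10 markers had a higher fitted level in C2-/- (45.8% of all tested genes). Of these, 3 (*Dpt*, *Clec3b* and *Gsn*) had an unadjusted p under 0.05, where 3.38% of all tested genes were higher. Their edgeR adjusted p were 0.647, 0.731 and 0.640. None of these 10 markers was at 0 in a library. The 5 smooth muscle and pericyte markers summed to 331, 198, 296 and 232 CPM in WT replicates 1 to 4 and to between 312 and 381 CPM in C2-/- mice, so that they were lowest in WT replicates 2 and 4, the mice with low *Lum*, *Bgn* and *Aspn*. The 8 tendon markers summed to between 57.9 and 95.8 CPM in WT and between 68.0 and 141 CPM in C2-/- mice. Their sum in WT replicate 2 (92.7 CPM) was above C2-/- replicates 1 and 3 (68.0 and 75.1 CPM). *Fibin* alone was at 36.9 CPM in WT replicate 2, against 3.33 to 7.28 CPM in the other mice. Over the 8 mice, Pearson's r of the tendon sum with the tested members ran from −0.03 (*Lum*) to 0.74 (*Fmod*). For the fibro-adipogenic progenitor sum, which was mostly *Gsn*, it ran from 0.40 (*Aspn*) to 0.93 (*Prelp*). For the smooth muscle and pericyte sum it ran from 0.31 (*Fmod*) to 0.93 (*Lum*). Of the 7 tested tendon markers, 4 had a higher fitted level in C2-/- and 3 a lower one. *Tnmd* and *Cilp2* had log2 fold changes of 1.43 and 1.69 (edgeR unadjusted p = 0.0264 and 0.0233), with an unadjusted p of up to 0.0774 and 0.0758 when 1 mouse was left out. *Fibin*, *Thbs1* and *Scx* had log2 fold changes of −1.36, −0.57 and −0.13, each with an unadjusted p above 0.05. The 6 immediate early genes were high in WT replicates 2 and 4 and in C2-/- replicate 2, with sums of 749, 1519 and 996 CPM against 145 to 188 CPM in the other mice. Among the other marker lists, 7 of 8 macrophage, 4 of 5 adipocyte and 3 of 5 endothelial markers had a higher fitted level in C2-/-. So did 3 of 7 fast fibre, 1 of 5 Schwann and 1 of 5 slow fibre markers. Of the slow fibre markers, 1 was lower with an edgeR unadjusted p under 0.05 (1.91% of all tested genes). This was *Myh7*, at 2.62, 0.365, 2.05 and 20.9 CPM in WT replicates 1 to 4 and at 0.446 to 1.85 CPM in C2-/- mice. WT replicate 4 was far above all other mice, and the unadjusted p was 0.032 with edgeR but 0.270 with limma-voom. The part of these cell types and genes in the differences was not tested.

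Of the 8 other genes of the family, 4 passed the filter. *Tsku*, which encodes tsukushi, a secreted modulator of BMP and Wnt signals, was at 1.16, 0.620, 1.53 and 0.868 CPM in WT replicates 1 to 4 and at 1.63, 1.86, 2.16 and 2.04 CPM in C2-/- replicates 1 to 4. The groups did not overlap, with a log2 fold change of 0.88 (SE 0.30, edgeR adjusted p = 0.786, unadjusted p = 0.0150). *Chad*, which encodes the cartilage and tendon protein chondroadherin, was at 1.35, 1.02, 18.4 and 8.21 CPM in WT replicates 1 to 4 and at 7.49, 28.0, 9.36 and 28.0 CPM in C2-/- replicates 1 to 4. It followed the order of *Fmod* over the mice closely (r = 0.97 over 8 mice, and 0.97 with each genotype's mean taken out). Its log2 fold change of 1.33 (standard error 0.80, unadjusted p = 0.127 from the edgeR test) was within the spread between mice. *Chadl* had a log2 fold change of 0.06 (edgeR unadjusted p = 0.869). It was below 0 without WT replicate 2 (−0.17), WT replicate 4 (−0.03) or C2-/- replicate 2 (−0.002). *Epyc*, *Optc*, *Nyx* and *Podnl1* had at most 6 counts in any mouse. *Epyc*, the last gene of the chromosome 10 cluster, had 3 counts in C2-/- replicate 1 and 0 in the other mice.

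Genes that build the sugar chains of these proteins had small median differences. Of 25 genes for chondroitin and dermatan sulfate, 23 were tested, and their median difference on the log2 scale was 0.09. Both of the 2 genes with an unadjusted p under 0.05 were higher in C2-/-, where 3.38% of all tested genes were, and the count ran from 1 to 4 with 1 mouse left out (1 without WT replicate 1 or C2-/- replicate 2, 4 without WT replicate 3). *Dsel*, a relative of the epimerase that makes dermatan sulfate, was at 0.872 ± 0.211 CPM in WT and 1.66 ± 0.513 CPM in C2-/- (SD, n = 4; log2 fold change 0.93, edgeR adjusted p = 0.802, unadjusted p = 0.0157). *Fam20b*, a kinase of the linkage region that all such chains share, was at 45.7 ± 7.45 CPM in WT and 58.4 ± 3.44 CPM in C2-/- (SD, n = 4; log2 fold change 0.36, edgeR adjusted p = 0.849, unadjusted p = 0.0209). *Dse*, the main dermatan sulfate epimerase, had a log2 fold change of 0.46 (unadjusted p = 0.133). Of 7 tested genes for keratan sulfate, the chain of lumican, fibromodulin and keratocan, 0 reached an unadjusted p under 0.05, and *Chst2* came closest (log2 fold change 0.65, unadjusted p = 0.0530 from the edgeR test), followed by *Chst1* (−0.32, unadjusted p = 0.218) and *St3gal2* (0.17, unadjusted p = 0.272).

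The partners of the family on the fibril had higher fitted levels in C2-/- too, but 0 of them passed the adjusted threshold. Of 12 tested genes for collagens that these proteins bind, 12 had a higher fitted level in C2-/- (45.8% of all tested genes), 8 were higher with an unadjusted p under 0.05 (3.38%), and in 8 every C2-/- mouse was above every WT mouse (2.02%). Their median log2 fold change was 0.90. *Col5a2* and *Col6a1*, chains of a fibril-forming and a microfibril collagen, had the smallest p beside *Col5a1*, with log2 fold changes of 0.93 and 0.83 (edgeR adjusted p = 0.571 and 0.598). *Col5a1*, a chain of the collagen that starts fibrils, was at 13.6, 11.5, 22.6 and 15.3 CPM in WT replicates 1 to 4 and at 22.6, 26.0, 32.5 and 26.3 CPM in C2-/- replicates 1 to 4. WT replicate 3 and C2-/- replicate 1 were level, and the other mice of the genotypes lay apart (log2 fold change 0.77, edgeR adjusted p = 0.608, unadjusted p = 0.00352). Among 9 tested genes for enzymes that process or cleave the family, counted with the enhancer *Pcolce*, 5 had an unadjusted p under 0.05. All 5 were higher in C2-/- (3.38% of all tested genes), and 0 passed adjustment. That count was 3 with limma-voom, 2 without WT replicate 4, 2 without C2-/- replicate 1, and 3 without WT replicate 1, WT replicate 3 or C2-/- replicate 4. *Mmp2*, a gelatinase that can cut decorin, was at 23.8, 23.0, 32.9 and 24.5 CPM in WT replicates 1 to 4 and at 36.9, 46.8, 42.4 and 51.5 CPM in C2-/- replicates 1 to 4. The groups did not overlap, and the log2 fold change of *Mmp2* was 0.77 (SE 0.15, edgeR adjusted p = 0.391, unadjusted p = 0.000468, and adjusted p between 0.00387 and 0.877 over the alternatives, the lowest being DESeq2). *Pcolce*, an enhancer of the enzyme that trims procollagen and pro-biglycan, was at 17.3 ± 4.70 CPM in WT and 28.8 ± 1.68 CPM in C2-/- (SD, n = 4; log2 fold change 0.73, edgeR adjusted p = 0.571, unadjusted p = 0.00249). *Bmp1*, which encodes that enzyme, had a log2 fold change of 0.42 with an unadjusted p of 0.0480, and of up to 0.119 when 1 mouse was left out. *Mmp14*, which encodes a membrane-bound matrix protease, had a log2 fold change of 0.43 with an unadjusted p of 0.0487, and of up to 0.184 when 1 mouse was left out. *Adamts5*, which encodes an aggrecanase, had a log2 fold change of 0.47 (unadjusted p = 0.0384), and one of 0.25 (unadjusted p = 0.139) without C2-/- replicate 3.

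Of 19 tested genes for ligands and receptors of these proteins, elastin among them, 1 had an unadjusted p under 0.05, a share close to the 5.29% of all tested genes. This was *Lrp1*, the endocytic receptor for decorin, at 39.7, 30.4, 52.4 and 39.4 CPM in WT replicates 1 to 4 and at 59.9, 56.8, 60.1 and 67.7 CPM in C2-/- replicates 1 to 4. The genotypes did not overlap, with a log2 fold change of 0.59 (SE 0.16, edgeR adjusted p = 0.608, unadjusted p = 0.00355). *Mstn*, which encodes myostatin, was at 49.8 ± 17.2 CPM in WT and 37.2 ± 10.8 CPM in C2-/- (SD, n = 4; unadjusted p = 0.142), within the spread between mice. *Eln*, which encodes elastin, had a log2 fold change of −0.25 (unadjusted p = 0.163).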

How the data were processed

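The authors aligned the reads with HISAT to GRCm38.p6 and named featureCounts for counting, and the labels also list Bowtie2. They deposited expected counts per gene, not normalized, and TPM. Between 5.50% and 6.53% of count values per mouse were not whole, and they were rounded. The deposited fold changes, p-values and q-values and 8 FPKM columns were not used. Of 16687 rows, 16686 had a gene ID, and symbols were restored by gene ID (16586 matched RefSeq).

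Counts were scaled with TMM (factors 0.929 to 1.03) and tested with edgeR 4.0.16 (R 4.3.3; quasi-likelihood, default low-count filter, Benjamini-Hochberg). Standard errors came from the fold change and the root of F. Alternatives used limma 3.58.1 and DESeq2 1.42.0. Log2 CPM had a prior count of 2. The members and gene lists were chosen with earlier results of these data known. Named were all members and relatives, the 3 genes of smallest p in each list and the 5 genes most like the members' mean. *Tnmd*, *Cilp2*, *Fibin*, *Thbs1*, *Scx*, *Dpt*, *Clec3b*, *Gsn*, *Pdgfrb*, *Myh7*, *Bmp1*, *Mmp14* and the shown sequences were picked with their values known. The counting is not stated to use strand. The interval of *Cenpp* (at most 21 counts) covers *Aspn*, *Omd* and *Ogn*. *Prelp* overlaps *Optc* (at most 4 counts) and shares 355 identical bases with the antisense gene *Gm15851*. Very long intervals of *Rcor3* (at most 576 counts) and of 6 genes on chromosome 4 (at most 63) cover *Fmod*, *Prelp* and *Podn*. blastn 2.17.0 found no other copy (95% identity over 200 bases).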

Additional observations from a re-analysis of the deposited data

Results flagged for a closer look

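A library stood apart from the other 3 of its genotype, by the gap to its nearest neighbour against the whole range, in 8 of the 82 groups of named genes examined, where chance gives about 1 in 20. *Omd* was at 0.0709 CPM in C2-/- replicate 3, against 0.378 to 0.416 CPM in the other C2-/- mice, on a few counts. *Mybpc2* was at 38.3 CPM in C2-/- replicate 3, against 3.85 to 4.35 CPM. *Dse* was at 1.79 CPM in WT replicate 3, against 1.002 to 1.05 CPM, and at 2.13 CPM in C2-/- replicate 3, against 1.49 to 1.56 CPM. WT replicate 3 was also above the other WT mice for *Col5a2* (9.22 against 4.92 to 5.46 CPM), *Mmp2* (32.9 against 23.0 to 24.5 CPM) and *Prg4* (29.7 against 6.87 to 9.73 CPM). *Cspg4* was at 4.30 CPM in WT replicate 2, against 8.60 to 9.33 CPM in the other WT mice.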

How the results depend on the processing

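Under the 16 alternatives, all 143 log2 fold changes of tested members were above 0 and 0 had an adjusted p under 0.05. An unadjusted call was lost 4 times (*Dcn*, *Bgn*) and gained 13 times (*Lum*, *Fmod*, *Ogn*, *Aspn*, *Kera*). The median log2 fold change of the members lay between 0.50 and 0.73 with each mouse left out. It takes in *Omd* in the fits without a WT mouse or without C2-/- replicate 3, where *Omd* passed the filter. With each mouse left out, other counts moved as well. Members with an unadjusted p under 0.05 then numbered 2 to 8, genes past the adjusted threshold above 1.5-fold 4 to 7, genes with an unadjusted p under 0.05 506 to 983, and genes of the related lists 17 to 24. With DESeq2, 38 genes passed the adjusted threshold, against 4 with edgeR, and the cause was not tested. With the replicate number as a block, 6 members had an unadjusted p under 0.05 (*Lum* and *Fmod* added), with a median of 0.61. The correlations of same-numbered deviations were 0.27, 0.04, −0.05 and 0.02, and 2 of 8 libraries correlated best with their own number. With so few mice, these values cannot tell whether same-numbered mice were paired, and the labels name no pairs. Depth limits *Kera* and *Omd*.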

Other observations

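Of 16 tested genes for other proteoglycans, 3 had an unadjusted p under 0.05, all higher in C2-/- (3.38% of all tested genes), and 0 passed adjustment. The count was 1 without C2-/- replicate 3, 2 without C2-/- replicate 2 or WT replicate 2 or 4, and 5 without WT replicate 3. *Cspg4*, which encodes the NG2 proteoglycan of pericytes, was at 8.60, 4.30, 9.33 and 9.01 CPM in WT replicates 1 to 4 and at 12.1, 12.5, 13.2 and 12.9 CPM in C2-/- replicates 1 to 4, without overlap (log2 fold change 0.70, edgeR adjusted p = 0.732 by Benjamini-Hochberg, unadjusted p = 0.00884). *Prg4*, which encodes lubricin, the lubricating proteoglycan of joints and tendon sheaths, was at 8.21, 9.73, 29.7 and 6.87 CPM in WT replicates 1 to 4 and at 12.8, 30.2, 161 and 50.9 CPM in C2-/- replicates 1 to 4 (log2 fold change 2.23, edgeR adjusted p = 0.758, unadjusted p = 0.0122). The groups overlapped, and without C2-/- replicate 3 the log2 fold change was 1.20 with an unadjusted p of 0.0642. *Sdc2*, which encodes the cell-surface proteoglycan syndecan-2, had a log2 fold change of 0.49 (unadjusted p = 0.0368, and up to 0.0953 when 1 mouse was left out).

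Of 9 tested genes for regulators of the family, 0 had an unadjusted p under 0.05 with edgeR. *Smad4*, a mediator of TGF-β signals, was at 97.1, 95.5, 96.5 and 98.5 CPM in WT replicates 1 to 4 and at 81.2, 83.9, 73.3 and 93.1 CPM in C2-/- replicates 1 to 4, without overlap (log2 fold change −0.23, unadjusted p = 0.0552, adjusted p = 0.944). *Klf4* and *Sp1* followed with log2 fold changes of −0.60 and −0.17 (unadjusted p = 0.128 and 0.232). The genes most like the mean of the 9 tested members over the 8 mice were *Scara3* (r = 0.99), *Arhgap15* (r = 0.99), *Itgbl1* (r = 0.98), *Niban1* (r = 0.98) and *Itga7* (r = 0.98), out of all tested genes. *Itgbl1* was at 0.771, 0.438, 2.24 and 0.905 CPM in WT replicates 1 to 4 and at 1.74, 3.09, 2.48 and 3.19 CPM in C2-/- replicates 1 to 4.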
